A study of Mus musculus with 44 samples.

Results

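The genes described here are the extracellular matrix, integrin and matrix protease genes of the array: collagen chains, laminin chains, integrin subunits, matrix metalloproteinases (MMPs), tissue inhibitors of metalloproteinases (TIMPs), and proteases of the ADAM and ADAMTS families. They were chosen by a rule on names that used none of their values, though with earlier results of these data known. They make up 91 of the 9554 features of the deposited table. The 91 features carry 83 base names and 82 mouse gene symbols, since 8 genes were represented by a pair of features each. By class they were 21 collagen, 16 ADAM, 11 integrin alpha, 11 MMP, 9 ADAMTS, 7 laminin, 6 integrin beta and 4 TIMP features. A further 6 features met the rule by name only and encode no such protein: Cert1, whose older name is Col4a3bp and which transfers ceramide, the integrin-binding proteins Itgb1bp1 and Itgb1bp2, and Itgbl1.

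Collagens and laminins form the fibres and basement membranes around cells, and in brain they are concentrated in the blood vessel wall and the meninges, while the tissue between neurons is rich in hyaluronan and chondroitin sulfate proteoglycans. Integrins are paired alpha and beta subunits that bind these proteins and couple them to the actin cytoskeleton. MMPs and ADAMTS proteases cut matrix proteins, ADAM proteases mainly release the outer parts of membrane proteins, and TIMPs inhibit these enzymes.

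The study compared the hypothalamus with the rest of the brain, and untreated mice with mice in 2 models of sodium craving: ACTH, a pituitary hormone that drives the adrenal cortex, and furosemide, a diuretic that causes loss of salt. All animals were adult male C57/Bl6 mice, and the brain samples are whole brain minus the hypothalamus. In hypothalamus there were 4 untreated control arrays, 5 with ACTH, 6 with ACTH gratified, 4 with furosemide and 4 with furosemide gratified, and in brain 4, 4, 5, 4 and 4, which gives 23 and 21 arrays and 44 in all. The gratified groups carry that word in their labels, which do not say what the animals received, nor the doses or times. Each array set tissue RNA in the red dye (Cy5) against a commercial mouse reference RNA pooled from other sources in the green dye (Cy3), with no dye swap.

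A value is thus the log2 ratio of tissue over reference, so 0 means an equal signal, and a gene's level says how it compares with the reference pool and not how abundant its RNA is. Differences between groups cancel the reference. The labels do not tie arrays to animals, so p-values measure the spread between arrays, and in whole tissue fewer cells of a type and less RNA per cell cannot be told apart. Each difference was tested with limma over all 9554 features and called at an adjusted p under 0.05, and ± after a difference is its standard error.

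Some arrays stood apart, and tied values touch many results. Hypothalamus ACTH gratified replicate 4 had the lowest mean correlation with the other arrays of its group (0.770, against up to 0.975 elsewhere). The array labelled hypothalamus ACTH gratified replicate 6 had a mean of 0.38 over 11 hypothalamus markers and 1.08 over 10 cortex and hippocampus markers, where the other arrays of that group had 1.14 to 1.79 and 0.16 to 0.65. Its marker values lay in the range of the brain arrays, so the counts of calls that rest on it are given with and without it. Brain ACTH gratified replicate 3 and brain furosemide gratified replicate 4 had cortex means of 0.46 and 0.43, against 0.88 to 1.37 on the other brain arrays. Many values were tied, that is, exactly equal to the value of another feature on the same array. All 20 arrays of the ACTH and ACTH gratified groups, and no other, belong to 1 of 3 series of numbers in the labels, and on them 20.3% to 33.5% of values were tied, against 2.75% to 16.1% on the other 24. Treatment with ACTH and number series therefore cannot be told apart.

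Promoter sequences are shown for 4 genes on which the comparisons turn: Adam19, Adam15 and Itgb5, which were lower in the brain of both ACTH groups, and Timp3, which was higher in hypothalamus than in brain. Each is the 250 bases before a RefSeq transcription start (assembly GRCm38.p6), written 5′ to 3′ on the gene's strand. Capitals mark matches on either strand to GGGCGG, a GC box, or to TGANTCA, the site of AP-1 factors; the motifs did not overlap in these 4. The Adam19 sequence is chr11:46055734-46055983 on the plus strand, the first of 3 listed starts, with 1 AP-1 match. The Adam15 sequence is chr3:89350029-89350278 on the minus strand with 1 GC box, the Itgb5 sequence chr16:33829415-33829664 on the plus strand with 3, and the Timp3 sequence chr10:86300162-86300411 on the plus strand with 1.
Adam19: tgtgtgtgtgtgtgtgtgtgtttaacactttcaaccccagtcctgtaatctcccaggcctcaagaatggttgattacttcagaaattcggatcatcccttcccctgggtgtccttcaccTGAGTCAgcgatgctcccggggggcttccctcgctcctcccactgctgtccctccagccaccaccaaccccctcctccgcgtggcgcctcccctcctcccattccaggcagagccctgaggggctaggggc
Adam15: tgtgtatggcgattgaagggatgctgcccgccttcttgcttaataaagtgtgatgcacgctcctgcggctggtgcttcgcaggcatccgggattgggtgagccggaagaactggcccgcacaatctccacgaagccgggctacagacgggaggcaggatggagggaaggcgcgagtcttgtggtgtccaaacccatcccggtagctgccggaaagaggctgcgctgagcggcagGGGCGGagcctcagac
Itgb5: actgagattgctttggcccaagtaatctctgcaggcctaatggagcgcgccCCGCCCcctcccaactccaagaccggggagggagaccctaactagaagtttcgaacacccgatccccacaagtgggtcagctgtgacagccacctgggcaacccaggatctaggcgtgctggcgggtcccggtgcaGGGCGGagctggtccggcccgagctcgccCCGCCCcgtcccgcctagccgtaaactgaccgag
Timp3: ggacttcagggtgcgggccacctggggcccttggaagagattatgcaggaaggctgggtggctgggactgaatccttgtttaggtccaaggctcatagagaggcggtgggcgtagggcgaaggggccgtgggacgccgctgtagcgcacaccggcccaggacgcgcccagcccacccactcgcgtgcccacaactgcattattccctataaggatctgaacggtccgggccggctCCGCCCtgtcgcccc
Over the table as a whole, 62 promoters were listed for 53 of the members' symbols. A GC box lay in 34 of these 62 (54.8%) and in 32.7% of all 32851 listed promoters, and an AP-1 match in 5 (8.06%) and in 6.75%. A match is a description of these letters and not a measured site.

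The members spanned a wide range of ratios, and the class medians of collagens, laminins and integrins lay below 0. By the mean over all 44 arrays, the median member lay at -0.25. The lowest was Col1a1, a chain of the main fibrillar collagen, at -2.23. The highest was Mmp17, a protease anchored to the cell surface by a lipid, at 1.59. In 44 of the 91 members every group mean was below 0, and in 29 every group mean was above 0. Among ligands, collagen features had a median level of -0.30 (highest 0.62), with the collagen VI chains Col6a2 at -1.61 and Col6a1 at -1.36 and the basement membrane chains Col4a1 at -1.51 and Col4a2 at -0.99. Laminin features had a median of -0.72, with Lamb1 at -1.03, Lamb2 at -1.01 and Lama5 at -0.99. Not all lay low: 8 of the 21 collagen and 2 of the 7 laminin features were above 0 in every group, among them Col15a1 at 0.37 and Lamc3 at 0.20, and 9 and 4 were below 0 in every group. Integrin alpha features had a median of -0.27 and beta features of -0.57. Itgb1, the beta subunit shared by most matrix receptors, lay at -1.16, with its partners Itga5, a fibronectin receptor subunit, at -1.31 and Itga6, a laminin receptor subunit, at -0.999.

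The proteases and their inhibitors spread furthest. Above the reference lay Mmp17 at 1.59, Mmp24, a membrane-type MMP known from neurons, at 1.08, and the ADAM members Adam11 at 1.39 and Adam23 at 0.80, both neuronal surface proteins without protease activity. Timp4 lay at 1.47, while Timp1 lay at -1.76, Timp2 at -0.92 and Timp3 at -0.63. Mmp2, a gelatinase, lay at -1.60, and Mmp14, the membrane protease that activates Mmp2, at -1.35. Where 2 features carried 1 gene, the levels could differ: Adam28 read 0.13 on one feature and -0.81 on the other, Adam10 -0.63 and -0.29, and Adam33 0.09 and 0.52. Over all 44 arrays, 17 members were tied on most of them.

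**Figure D1:**
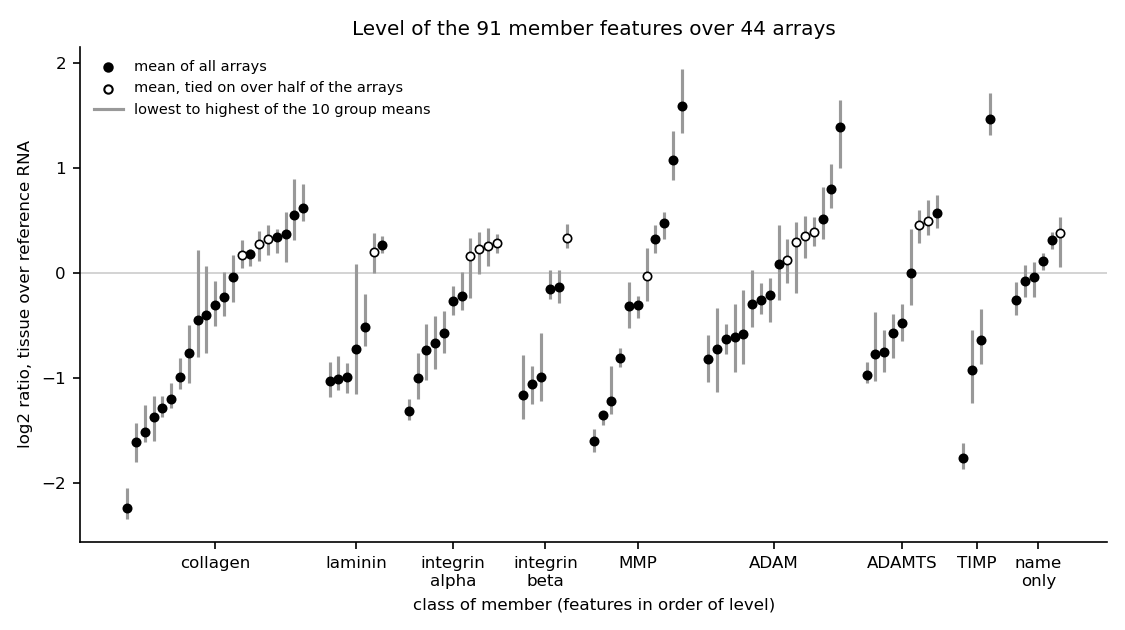
Each point is the mean log2 ratio of tissue over reference for 1 member over all 44 arrays, arranged by class. Grey lines run from the lowest to the highest of the 10 group means. Hollow points are members tied on most of the arrays. Mmp17 and Timp4 lie at the top and Col1a1 at the bottom, and 9 of the 21 collagen features lie below 0 and 8 above 0 in every group.

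ACTH against control in brain asked which members differed in mice given the hormone, and the clearest changes were falls in a small set of proteases and 1 integrin subunit. Adamts5 and Adamts4, which cut the aggrecan family of proteoglycans, fell, as did Adam19, a protease that releases neuregulin, Adam15, an ADAM with an integrin-binding domain, and Itgb5, which pairs with integrin alpha v to bind vitronectin. In all, 21 of 91 members were called (14 higher, 7 lower), beside 30% of all 9554 features (9.29% higher and 20.7% lower). In the ACTH gratified group, compared with the same control arrays, 17 members were called (12 higher, 5 lower), beside 32.7% of all features (11.5% higher and 21.2% lower). In total and among falls the members' shares were no larger than those of the table. Rises made up 15.4% of the members with ACTH and 13.2% with ACTH gratified, and falls 7.69% and 5.49%, a description with no test. The median difference of the members was 0.04 in both comparisons, and that of all features was -0.04 in both.

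Adamts5 read -0.48, -0.60, -0.06 and -0.35 on the brain control arrays, where -0.06 was a tied value. It read -1.01, -1.09, -1.06 and -0.87 on the ACTH arrays and -1.20, -0.97, -0.87, -1.02 and -1.09 on the ACTH gratified arrays. Every treated array lay below every control array. The difference was -0.64 ± 0.12, or 1.56-fold (limma adjusted p = 0.00111), with ACTH and -0.66 ± 0.12 (limma adjusted p = 0.000462) with ACTH gratified. Adam19 read -0.37, -0.11, 0.04 and -0.18 in brain controls, -0.73, -0.90, -0.40 (tied) and -0.86 with ACTH, and -0.90, -0.89, -0.73, -0.84 and -0.96 with ACTH gratified. Again the groups did not overlap, although the tied ACTH value came close to the lowest control. The difference was -0.57 ± 0.11 (limma adjusted p = 0.00095) and -0.71 ± 0.10 (limma adjusted p = 8.9e-05).

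Itgb5 varied little among replicates. It read -0.94, -0.85, -0.83 and -0.93 in brain controls, -1.15, -1.14, -1.22 and -1.27 with ACTH, and -1.22, -1.14, -1.11, -1.30 and -1.33 with ACTH gratified. All 9 treated arrays lay below the 4 controls, and the difference was -0.31 ± 0.07 (limma adjusted p = 0.00201) and -0.33 ± 0.06 (limma adjusted p = 0.000634). Adam15 read -0.24, -0.16, -0.06 and -0.08 in controls, -0.33, -0.32, -0.47 and -0.38 with ACTH, and -0.42, -0.49, -0.29, -0.35 and -0.41 with ACTH gratified. Here too no treated array reached a control, with differences of -0.24 ± 0.07 (limma adjusted p = 0.0113) and -0.26 ± 0.06 (limma adjusted p = 0.00484). Adamts4 read 0.07, 0.12 (tied), -0.08 and 0.07 in controls, -0.37, -0.23, -0.43 and -0.19 with ACTH, and -0.27, -0.22, 0.03, -0.01 and -0.20 with ACTH gratified. It fell with ACTH, by 0.35 ± 0.10 (limma adjusted p = 0.011), and the gratified group, which overlapped the controls, differed by -0.18 ± 0.09 (limma adjusted p = 0.14). These calls for Adamts5, Adam19, Itgb5, Adam15 and Adamts4 held when any 1 array was left out.

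Less even falls were seen in 2 laminin receptor subunits and in Adam11. Itga3 read -0.65, -0.21, -0.62 and -0.45 in brain controls and -1.05, -0.45, -1.02 and -1.10 with ACTH, with 1 ACTH array inside the control range (-0.42 ± 0.14, limma adjusted p = 0.0247). Adam11 differed by -0.34 ± 0.11 with ACTH (limma adjusted p = 0.0211). Itga6 read -1.11, -0.42, -0.63 and -0.88 in controls and -1.19, -1.31, -1.36, -0.98 and -1.13 with ACTH gratified, so that 1 treated array lay above the lowest control (-0.43 ± 0.15, limma adjusted p = 0.032). The calls held in 3 of 8, 5 of 8 and 4 of 9 fits with 1 array left out, and none of these 3 was called after quantile normalization.

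**Figure D2:**
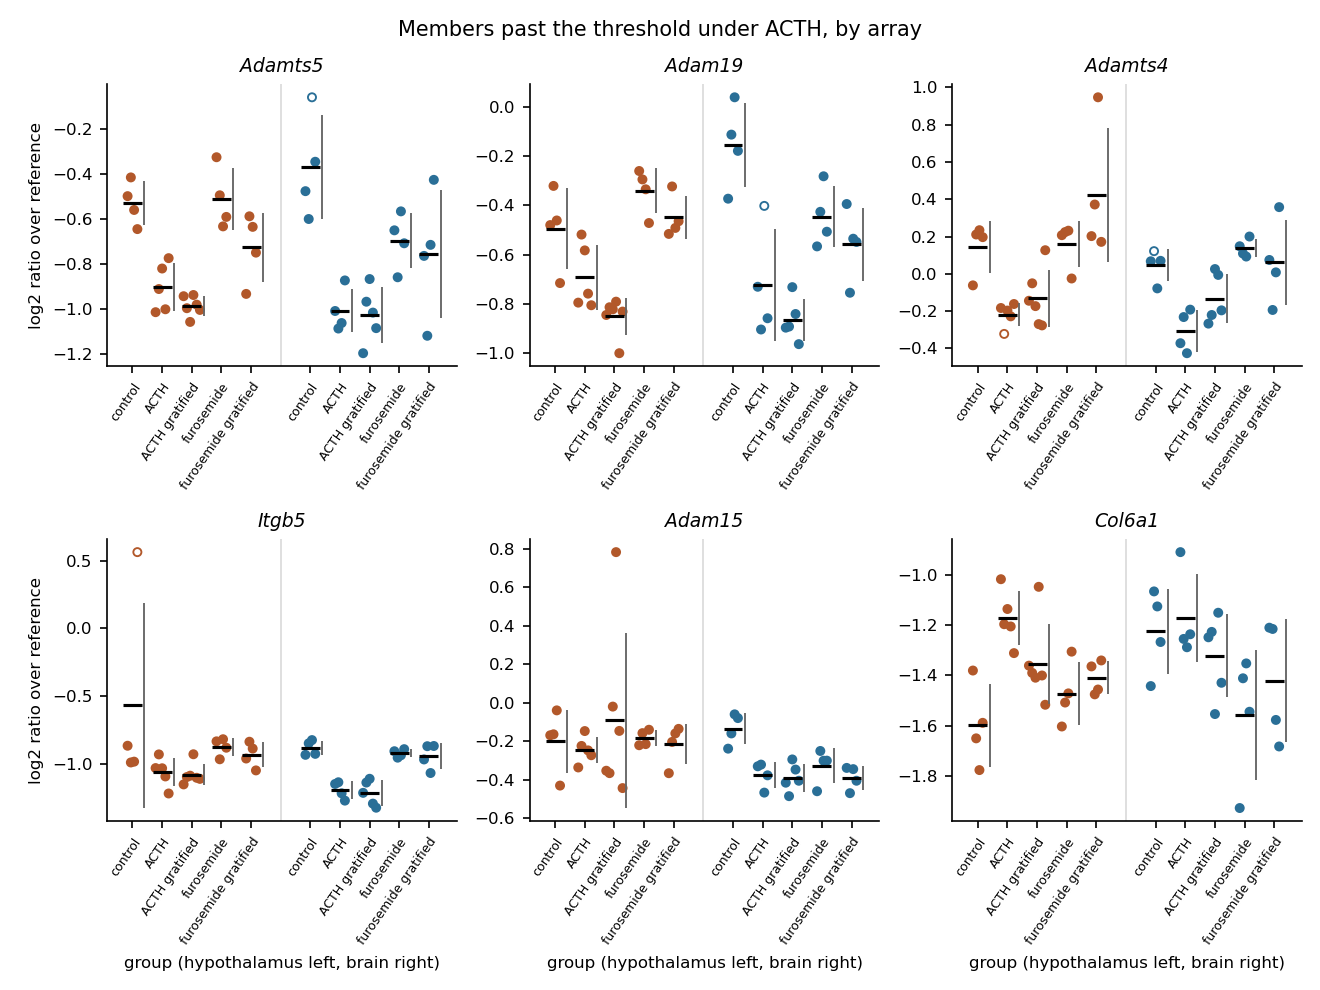
Points are single arrays in each of the 10 groups for members that differed with ACTH, on the log2 scale of tissue over reference; bars are group means, lines ± SD, and hollow points are tied values. Adamts5 lies lower in the ACTH and ACTH gratified groups than in controls in both tissues, and Itgb5 and Adam15 do so in brain.

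The rises differed from the falls in how often the called features were tied. Of the 14 members that rose with ACTH in brain, 10 (71.4%) were tied on most arrays (a share above 0.5) of either group compared, and of the 12 that rose with ACTH gratified, 11 (91.7%) were. None of the 7 and 5 falls was. Over all features the same held for 52.9% and 66.0% of rises and for 1.82% and 1.68% of falls. Among the members tested, called or not, 30.8% and 34.1% were tied in this way, beside 19.8% and 21.9% of all features. With such features left out before the fit, 11 members (4 higher, 7 lower) and 6 (1 higher, 5 lower) were called, beside 30.8% and 31.1% of all features kept.

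The tied rises in brain included Mmp12, the macrophage elastase (0.45 with ACTH and 0.44 with ACTH gratified), Mmp13, a collagenase (0.37 and 0.25), the laminin chain Lamc3 (0.33 and 0.38), 1 feature of Adam28 (0.36 and 0.42), 1 of Itgb1bp1 (0.42 and 0.47) and the transmembrane collagen Col17a1 (0.19 and 0.21). With ACTH alone they included Lamc1, the gamma chain of most laminins (1.17), Col12a1 (0.92), 1 feature of Col20a1 (0.61) and Itgb3 (0.25), and with ACTH gratified alone Itgax (0.31), 1 feature of Itga7 (0.29), 1 of Col14a1 (0.28) and Itgae (0.21), with Col7a1 (0.31) tied there only. The Lamc1 call held in 3 of 8 fits with 1 array left out and was lost with tied values set to missing. The Col17a1 call with ACTH held in 1 of 8 such fits and was lost after quantile normalization, with array medians at 0, with array weights and with the replicate block. With ACTH gratified it held in 6 of 9 and was lost after quantile normalization. The other features of Adam28, Itgb1bp1, Col20a1, Itga7 and Col14a1 were not called in brain. Under tied values set to missing, the Col20a1 feature had a difference of -0.06 in the ACTH group, the other direction.

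The rises in brain that were not mostly tied were few. Adam8, a leukocyte protease, read -1.09, -0.82, -1.14 and -1.003 in controls and -0.06, -0.79, 0.35 and -0.82 with ACTH. A pair of ACTH arrays lay well above the controls and the other pair just above the highest control, and 1 of the 4 was tied (0.68 ± 0.25, limma adjusted p = 0.0458). Adam17, which releases tumour necrosis factor from cells, read -0.94, -0.39, -1.09 (tied) and -0.99 in controls and -0.56, -0.53, 0.40 (tied) and -0.48 with ACTH, and the ranges overlapped (0.56 ± 0.20, limma adjusted p = 0.0361). Mmp11 (0.30 ± 0.11, limma adjusted p = 0.0436) and Col7a1, the collagen of anchoring fibrils (0.29 ± 0.10, limma adjusted p = 0.0304), also passed with ACTH. With tied values set to missing, none of these 4 passed. Adamtsl5, a secreted relative of the ADAMTS enzymes without a protease domain, rose with ACTH gratified by 0.29 ± 0.09 (limma adjusted p = 0.0158), from -0.91, -0.80 (tied), -0.90 and -0.82 in controls to -0.58, -0.51, -0.51 (tied), -0.64 and -0.60. Its groups did not overlap, and the call held with any 1 array left out.

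**Figure D3:**
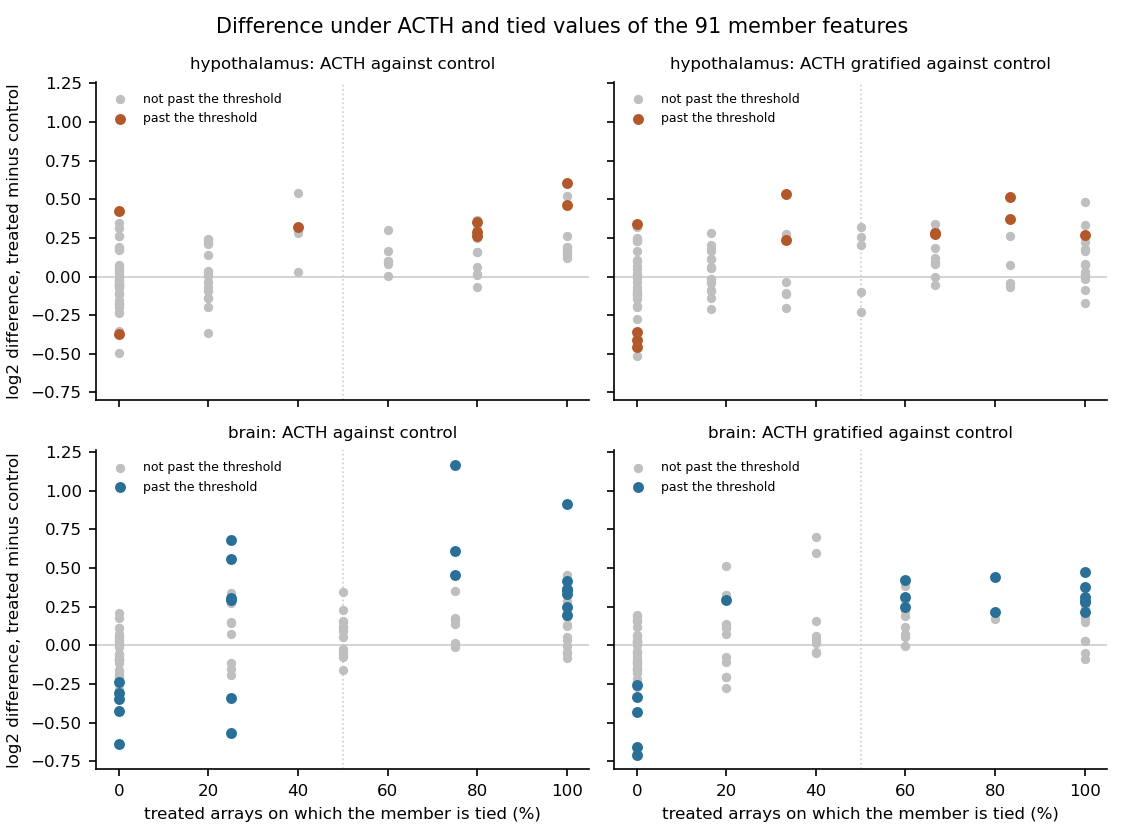
Each point is a member feature, in 4 panels for ACTH and ACTH gratified against control in each tissue. The log2 difference from control is set against the percent of treated arrays on which the member was tied. Coloured points passed the threshold and grey ones did not. In each of the 4 comparisons no fall among members was tied on most arrays of a group, while 62.5% to 91.7% of the rises were.

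Many members were called in none of the 4 comparisons of ACTH groups with controls. Col1a1, Col4a1, Col4a2, Itgb1, Mmp2, Mmp14, Timp1, Timp3, Timp4 and the myeloid integrin subunits Itgam and Itgb2 were among them. Without brain control replicate 4, the 21 calls of ACTH in brain became 12.

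In hypothalamus the same ACTH comparison called fewer members, and Adamts5 was the member that fell in both groups. It read -0.50, -0.42, -0.56 and -0.65 in controls, -1.01, -0.91, -0.82, -1.002 and -0.77 with ACTH, and from -1.06 to -0.94 (median -0.99) over the 6 ACTH gratified arrays. No treated array overlapped a control. The difference was -0.37 ± 0.08 (limma adjusted p = 0.00533) with ACTH and -0.46 ± 0.08 (limma adjusted p = 0.000521) with ACTH gratified, and both calls held with any 1 array left out. The change with ACTH was 0.26 ± 0.15 less negative in hypothalamus than in brain, which did not pass (limma adjusted p = 0.708). Counts were 8 members with ACTH (7 higher, 1 lower), beside 10.5% of all features (4.49% higher, 6.03% lower), and 11 with ACTH gratified (8 higher, 3 lower), beside 12.6% (4.67% higher, 7.97% lower). The median member differed by 0.05 and 0.06, and the median feature by -0.02 and -0.01.

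Adam19 read -0.48, -0.32, -0.46 and -0.72 in hypothalamus controls and from -1.0001 to -0.79 (median -0.83) with ACTH gratified, without overlap (-0.36 ± 0.08, limma adjusted p = 0.00477). With ACTH it read -0.80, -0.52, -0.58, -0.76 and -0.81, which overlapped the controls (-0.20 ± 0.08, limma adjusted p = 0.122). Timp2, which inhibits MMPs and also takes part in activating Mmp2, read -0.87, -0.74, -0.80 and -0.75 in controls and from -1.59 to -0.85 (median -1.18) with ACTH gratified. The groups overlapped at the top of the treated range (-0.41 ± 0.12, limma adjusted p = 0.0299), and the difference was -0.31 ± 0.12 (limma adjusted p = 0.0686) without replicates 4 and 6. Itgb5 differed by -0.49 ± 0.20 and -0.51 ± 0.19 (limma adjusted p = 0.106 and 0.0752), with 1 control array at a tied 0.56 and the other 3 at -0.87, -0.99 and -0.99. Adam15 differed by -0.04 and 0.11 ± 0.15 in hypothalamus and was not called. Without ACTH gratified replicate 4, which read 0.78, the second value was -0.0651 ± 0.08, the other direction and still not called (limma adjusted p = 0.601).

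Col6a1 and Col6a2, the chains of collagen VI among the members, passed once each in hypothalamus, in different comparisons. Collagen VI is a beaded-filament collagen. Col6a2 was not called with ACTH in hypothalamus, nor in brain. Col6a1 read -1.38, -1.65, -1.78 and -1.59 in controls and -1.02, -1.20, -1.14, -1.21 and -1.31 with ACTH, all above the controls. The difference was 0.43 ± 0.09 (limma adjusted p = 0.00579) and held with any 1 array left out, while ACTH gratified gave 0.24 ± 0.09 (limma adjusted p = 0.0701) and the brain comparisons 0.05 and -0.10. Col6a2 read -1.77, -1.84, -1.90 and -1.65 in controls and from -1.74 to -1.08 (median -1.41) with ACTH gratified, with overlap (0.34 ± 0.11, limma adjusted p = 0.0497). Without the array labelled replicate 6 the adjusted p of limma was 0.0896.

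The other rises in hypothalamus again included many tied features, 5 of 7 (71.4%) with ACTH and 5 of 8 (62.5%) with ACTH gratified, beside 52.2% and 38.3% of all rises. These were Mmp12 (0.46 and 0.37), Mmp13 (0.26 and 0.28), 1 feature of Adam28 (0.29 and 0.27) and 1 of Itga7 (0.35 and 0.29) in both, with 1 feature of Col20a1 (0.60) for ACTH and 1 of Adam33 (0.51) for ACTH gratified. The other features of Adam28, Itga7, Col20a1 and Adam33 were not called in these comparisons. With tied values set to missing, the Adam28 feature differed by -0.01 with ACTH, the other direction. Adamtsl5 read -0.89, -0.88, -0.86 and -0.82 in controls and -0.64 (tied), -0.53, -0.42, -0.48 (tied) and -0.65 with ACTH, without overlap (0.32 ± 0.09, limma adjusted p = 0.027). Adam8 read -1.13, -0.97, -0.89 and -1.05 in controls and from -0.80 to 0.07 (median -0.71) with ACTH gratified (0.54 ± 0.17, limma adjusted p = 0.0452). Itgax, an alpha subunit of myeloid cells, read -0.26, -0.35, -0.31 and -0.42 in controls and from -0.21 to 0.03 (median -0.10) with ACTH gratified (0.24 ± 0.07, limma adjusted p = 0.0326). Neither Adam8 nor Itgax had overlapping groups. In the gratified group Adam8 was tied on replicates 1 and 6 and Itgax on replicates 4 and 5. With tied features left out, 3 and 6 members were called, beside 9.92% and 13.6% of all features kept.

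Several arrays moved these counts. Without hypothalamus ACTH gratified replicate 4, 18 members (15 higher, 3 lower) were called, including all 11, and 2445 of all features in place of 1207. The 7 added were Adam12 (0.42), Adamtsl5 (0.31), 1 feature each of Col20a1 (0.31) and Col14a1 (0.24), Lamb3 (0.31), Lamc3 (0.29) and Col7a1 (0.26). Without the array labelled replicate 6, 8 of the 11 remained, and Adam8, Col6a2 and the Itga7 feature were lost (limma adjusted p = 0.0989, 0.0896 and 0.0811). Without both, 15 were called and 9 of the 11 remained. With each array's median set to 0, the split with ACTH gratified moved from 8 higher and 3 lower to 3 and 3, and for all features from 446 and 761 to 273 and 979. Leaving out hypothalamus control replicate 1 gave 5 and 6 calls with ACTH and ACTH gratified, and leaving out control replicate 3 gave 4 with ACTH.

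Other genes of the matrix and adhesion pathway were counted in 5 lists, beside the shares of all features called given above. Of 27 features for integrin adaptors and focal adhesion proteins, 2 rose and 11 fell with ACTH in brain and 1 rose and 11 fell with ACTH gratified, with medians of -0.13 and -0.18. With ACTH the largest differences were Parvb (0.65 ± 0.17), a parvin that binds integrin-linked kinase, Actn4 (-0.53 ± 0.12), an actin crosslinker, 1 feature of Fyn (-0.51 ± 0.09), a Src family kinase, and Ilk itself (-0.49 ± 0.08). With ACTH gratified they were Actn4 (-0.57 ± 0.11), 1 feature of Zyx (-0.49 ± 0.07), a focal adhesion protein, Fyn (-0.49 ± 0.08) and Parva (-0.45 ± 0.10). In hypothalamus 4 fell and none rose in each comparison, namely Fyn (-0.42 and -0.44), Lims2 (-0.32 and -0.33), Actn4 (-0.27 and -0.27) and 1 feature of Lims1 (-0.22 and -0.27).

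The other 4 lists held fewer calls in each brain comparison than the adaptor list. Among 34 features of matrix glycoproteins and basement membrane partners, 2 rose and 2 fell in brain with ACTH and 4 rose and 3 fell with ACTH gratified. The falls were no more numerous than the rises. They included Vtn, which encodes vitronectin, a ligand of the integrin that contains Itgb5 (-0.76 ± 0.11 and -0.34 ± 0.10), and Dag1, dystroglycan (-0.33 ± 0.09 and -0.32 ± 0.08). In hypothalamus Dag1 fell with ACTH (-0.28 ± 0.08), and with ACTH gratified Vtn fell (-0.27 ± 0.09) while Fbln5 (0.51 ± 0.17) and Matn2 (0.41 ± 0.13) rose. Of 29 proteoglycan, link protein and tenascin features, 4 rose and 2 fell in brain with ACTH and 2 rose with ACTH gratified, and 1 rose in each hypothalamus comparison. Bcan, brevican, which Adamts4 and Adamts5 cut, was among the 2 that fell with ACTH in brain (-0.34 ± 0.09), beside the 4 that rose. No feature of this list fell there with ACTH gratified. A link between these genes and the members was not tested. Of 23 features of the plasminogen system and protease inhibitors, 3 rose and 5 fell in both brain comparisons, and 0 rose and 2 fell, then 1 rose and 1 fell, in hypothalamus. Cst3, a secreted cysteine protease inhibitor, fell in all 4 (-0.73 ± 0.13 and -0.65 ± 0.12 in brain, -0.45 ± 0.11 and -0.47 ± 0.11 in hypothalamus). Of 18 features of collagen-processing enzymes, 1 rose and 5 fell, then 2 rose and 3 fell in brain, none was called with ACTH in hypothalamus and 2 rose and 1 fell there with ACTH gratified.

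Markers of cell types moved beside these results. Of 11 microglia and macrophage features, 10 fell with ACTH and 9 with ACTH gratified in brain, with medians of -0.54 and -0.56, and 3 and 5 fell in hypothalamus (medians -0.21 and -0.41). The list's mean per array was 0.20 to 0.66 in brain controls, -0.25 to -0.01 with ACTH and -0.24 to 0.00 with ACTH gratified, and in hypothalamus 0.24 to 0.42, -0.04 to 0.40 and -0.17 to 0.07. Among them Trem2 fell by 0.77 ± 0.09 and 0.80 ± 0.09 in brain, and Cx3cr1 by 0.84 ± 0.18 and 0.64 ± 0.17. Of 12 oligodendrocyte features, 0 rose and 4 fell in brain with ACTH, 1 rose and 2 fell with ACTH gratified, and 4 and 5 fell in hypothalamus. Of 15 endothelial features, 1 rose and 3 fell, then 2 rose and 4 fell in brain, with array means of 0.27 to 0.34 in controls, 0.25 to 0.34 and 0.18 to 0.27. Of 11 leptomeningeal fibroblast features, 3 rose and 2 fell, then 1 rose and 1 fell in brain. Of 9 astrocyte features none rose and 2 fell in both brain comparisons, and 2 and 4 fell in hypothalamus. Their array means were 1.40 to 1.88 in brain controls, 0.96 to 1.40 with ACTH and 1.23 to 1.47 with ACTH gratified, and in hypothalamus 1.65 to 1.74, 1.15 to 1.36 and 1.15 to 1.38. Of 7 blood cell features 3 and 2 rose in brain, 2 and 1 rose in hypothalamus, and none fell. Their array means were -0.14 to -0.04, 0.06 to 0.33 and 0.02 to 0.18 in brain, and -0.20 to 0.10, 0.08 to 0.39 and -0.06 to 0.20 in hypothalamus. The part of these cell types in the members' changes was not tested.

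The lists for ACTH gratified in hypothalamus were also counted without the arrays that stood apart. Without the array labelled replicate 6, 4 adaptor features, 5 microglia, 5 oligodendrocyte and 4 astrocyte features fell and none of them rose, as with it. Glycoproteins then gave 1 rise and 1 fall, proteoglycans no call, the plasminogen list 1 rise and 2 falls and the collagen-processing list 1 rise. The calls of Fyn, Lims2, Actn4, the Lims1 feature, Vtn, Fbln5 and Cst3 held without it, and Matn2 was lost (0.39 ± 0.13, limma adjusted p = 0.0663). Without replicates 4 and 6, 7 adaptor and 6 microglia features fell, and Matn2 was again not called (limma adjusted p = 0.0827). Without replicate 4 alone, 8 adaptor features fell, and Fbln5 was not called (0.40 ± 0.16, limma adjusted p = 0.0631).

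Comparing gratified with ungratified ACTH arrays set the groups labelled gratified against those that were not, and no member passed in either tissue. In hypothalamus limma called 0 members (7 at an unadjusted p under 0.05), beside 0.0105% of all features, and also 0 without replicate 4, 6 or both of the gratified arrays, and in brain 0 (5 unadjusted), beside 0.0628%. The largest brain difference near the threshold was Mmp11 at -0.47 (limma adjusted p = 0.104), a gene with a tied ACTH value of -0.40 beside -1.01, -0.96 and -1.14. For furosemide gratified against furosemide limma called 0 members in hypothalamus (5 unadjusted) and 0 in brain (6 unadjusted), beside 0.0105% and 0% of all features.

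Furosemide against control gave no called member in either tissue, although several members that fell with ACTH in brain had negative values. In brain limma called 0 members with furosemide (10 unadjusted), beside 0.0942% of all features, and 0 with furosemide gratified (8 unadjusted), beside 0%. In hypothalamus it called 0 and 0 (5 and 6 unadjusted), beside 0.0209% and 0%. Adamts5 in brain read -0.65, -0.86, -0.57 and -0.71 with furosemide and -0.76, -1.12, -0.72 and -0.43 with furosemide gratified. Most of these lay below the brain controls given above, with overlap in both groups, and the differences were -0.33 (limma adjusted p = 0.305) and -0.39 (limma adjusted p = 0.112). Adam19 in brain read -0.57, -0.43, -0.28 and -0.51, and -0.40, -0.75, -0.54 and -0.55 (differences -0.29 and -0.40, limma adjusted p = 0.301 and 0.081). Adam15 differed by -0.19 and -0.26 (limma adjusted p = 0.267 and 0.081), and 1 feature of Itgb1bp1 by 0.42 and 0.37 (limma adjusted p = 0.0803 and 0.0696). The ACTH and furosemide comparisons share their control arrays, so like values in both are not separate observations. Adamts5 in hypothalamus read -0.33, -0.50, -0.63 and -0.59 with furosemide and -0.93, -0.59, -0.64 and -0.75 with furosemide gratified. These overlapped the controls, and the lowest adjusted p of any member there was 0.607 and 1 by limma.

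Hypothalamus against brain asked which members differ between the regions, and among the members called over the treatments the largest differences were Mmp17, lower in hypothalamus, and Timp3, higher there. Averaged over the 5 treatments, 14 members were called (7 higher and 7 lower in hypothalamus), beside 14.8% of all features (8.26% higher, 6.55% lower). With features tied on most arrays of a group left out, 7 were called, beside 18% of all features kept. Without the array labelled hypothalamus ACTH gratified replicate 6 the same 14 were called, and without replicate 4, or both, these 14 and Adam15 (0.10, limma adjusted p = 0.031 without replicate 4). Both regions' own markers behaved by label over these groups: all 11 hypothalamus features were higher in hypothalamus (median 0.90) and 8 of 10 cortex and hippocampus features were lower (median -0.43), while 7 of 10 thalamus and habenula features were higher.

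Mmp17 ran from 1.04 to 1.84 (median 1.43) over the 23 hypothalamus arrays and from 1.13 to 2.05 (median 1.78) over the 21 brain arrays. The ranges overlapped, but the hypothalamus mean was the lower in all 5 treatments, and the mean difference was -0.34 ± 0.06 (limma adjusted p = 0.000185). Mmp24, also lower in 5 of 5, ran from 0.67 to 1.15 (median 1.00) against 0.90 to 1.66 (median 1.18), a difference of -0.21 ± 0.04 (limma adjusted p = 0.000728). Adam33 was lower on both of its features, by -0.30 ± 0.04 (limma adjusted p = 3.02e-06) and -0.23 ± 0.06 (limma adjusted p = 0.00734), in 5 of 5 and 4 of 5 treatments. Adamts13, the protease of von Willebrand factor (-0.18), Col19a1 (-0.16) and Adamts8 (-0.13) completed the lower set. These 3 and both Adam33 features, 5 of the 7 lower calls (71.4%), were tied on most arrays of a group. Over all features this held for 22.2% of the lower calls. Among features tested, called or not, it held for 46.2% of the members and 28.9% of the table.

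Timp3, a TIMP held in the matrix that also inhibits ADAM17 and the aggrecan-cutting ADAMTS enzymes, ran from -0.87 to 0.53 (median -0.45) in hypothalamus and from -1.07 to -0.48 (median -0.79) in brain. It was higher in 5 of 5 treatments, by 0.34 ± 0.07 (limma adjusted p = 0.000201). The tissues overlapped, and the highest hypothalamus value, 0.53, came from ACTH gratified replicate 4. Among matrix chains Col5a3, of a fibril-regulating collagen, was higher by 0.27 ± 0.07 (limma adjusted p = 0.00665), Col9a2, of a fibril-associated collagen, by 0.24 ± 0.08 (limma adjusted p = 0.0335), Lamb3 by 0.17 and Col15a1, a collagen of basement membrane zones, by 0.16. Adamtsl4, a microfibril-associated relative of the ADAMTS enzymes, ran from -0.62 to -0.16 (median -0.52) against -0.93 to -0.33 (median -0.69), higher by 0.19 ± 0.04 (limma adjusted p = 0.00102). Adamts15 was higher by 0.12. Lamb3 and Col15a1, 2 of the 7 higher calls (28.6%), were tied on most arrays of a group, beside 14.8% of the higher calls over all features.

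**Figure D4:**
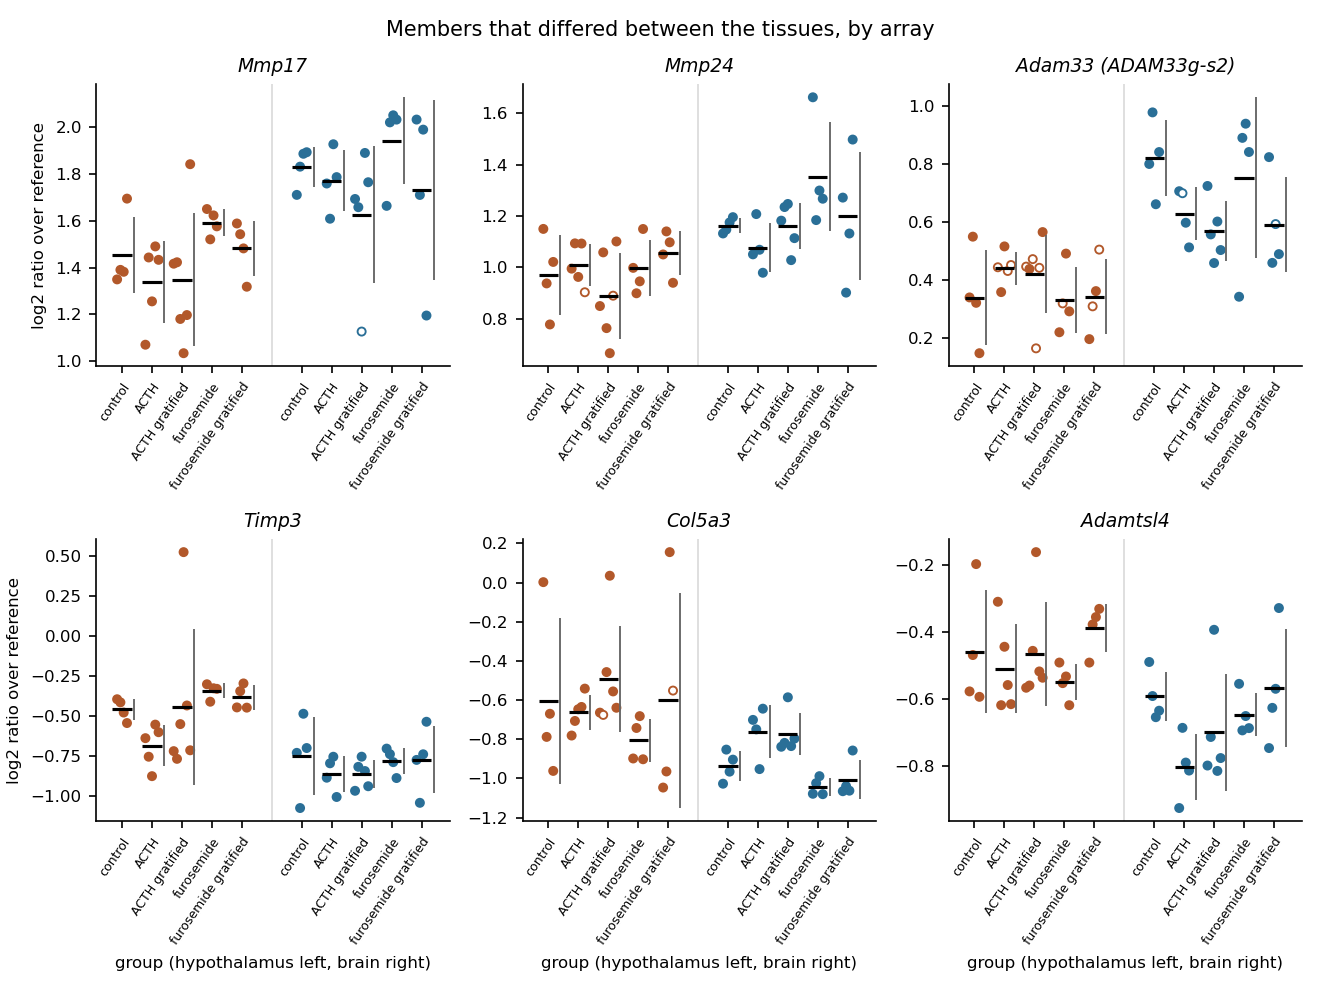
Points are single arrays for 6 members that differed between the tissues, with hypothalamus groups on the left and brain groups on the right of each panel; bars are group means, lines ± SD and hollow points tied values, on the log2 scale of tissue over reference. Mmp17 and Mmp24 are lower and Timp3 and Adamtsl4 higher in the hypothalamus groups, with single arrays that overlap.

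Within single treatments few members passed. In controls 4 did (1 higher, 3 lower), beside 2.82% of all features. The second Adam33 feature read 0.34, 0.55, 0.32 and 0.15 in hypothalamus and 0.80, 0.98, 0.66 and 0.84 in brain, without overlap (-0.48 ± 0.10, limma adjusted p = 0.00342). Adamts13 read 0.25, 0.27, 0.38 and 0.24 against 0.69, 0.62, 0.38 and 0.73, where the groups touched without overlap (-0.32 ± 0.08, limma adjusted p = 0.018). Adam19 (-0.34 ± 0.10, limma adjusted p = 0.0456) and Col15a1 (0.48 ± 0.12, limma adjusted p = 0.0204) also passed, with overlapping groups.

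With furosemide 3 were lower in hypothalamus, beside 2.47% of all features. Adam33 on its second feature differed by -0.42 ± 0.10 (limma adjusted p = 0.0155), Mmp24 by -0.36 ± 0.10 (limma adjusted p = 0.0484) and Adamts8 by -0.33 ± 0.09 (limma adjusted p = 0.0448). Mmp24 read 1.00, 0.90, 0.95 and 1.15 in hypothalamus and 1.66, 1.18, 1.30 and 1.27 in brain, where the lowest brain array lay just above the highest hypothalamus array. With ACTH only Mmp11 passed (-0.38 ± 0.09, limma adjusted p = 0.0278), beside 1.22% of all features, and it did not pass without brain ACTH replicate 2, the array with the tied value of -0.40 (limma adjusted p = 0.207). With ACTH gratified limma called 0 members (11 unadjusted), beside 0.555%, and without the array labelled replicate 6 it called Lamb3 (0.40, limma adjusted p = 0.0217). With furosemide gratified it called 0 (17 unadjusted), beside 1.63%.

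Fewer tissue calls remained when the number series was taken into account. The series differs between the regions for all control and all furosemide arrays. With the series as a factor, 2 of the 14 members were called, Timp3 and the second Adam33 feature, and none of the 4 in controls and the 3 with furosemide. Over the ACTH and ACTH gratified groups alone, which are of 1 series, 2 were called, Mmp17 and Adamtsl4. Both fits leave less information about the tissue difference, so an effect of the series cannot be told apart from lost precision. Whether the changes themselves differed between the tissues was tested as well: limma called 0 members for ACTH against control (7 unadjusted), beside 0% of all features, and 0 for furosemide against control (7 unadjusted), beside 0.0628%. For Adam19 the ACTH change was 0.37 ± 0.13 less negative in hypothalamus (limma adjusted p = 0.591).

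Matrix partners outside the members also differed between the regions. Of the 18 collagen-processing features 2 were higher and 1 lower in hypothalamus, led by Sparc, a collagen-binding glycoprotein (0.76 ± 0.09, limma adjusted p = 5.02e-08). Of the 34 glycoprotein features 2 were higher and 4 lower, with Fbln5, an elastic fibre protein, at 0.37 ± 0.08 and Matn2 at -0.25 ± 0.06. Of the 29 proteoglycan features 3 were higher and 3 lower, with the cell surface proteoglycan Sdc2 at 0.24 ± 0.04 and neurocan, Ncan, at -0.22 ± 0.06. Of the 27 adaptor features 2 were higher and 3 lower, with Ptk2b, a relative of focal adhesion kinase, at -0.59 ± 0.14. Of the 23 protease inhibitor features 2 were higher and 1 lower, with Serpini1, a neuronal serpin, at -0.36 ± 0.09. Beside these, 6 of 12 oligodendrocyte features were higher in hypothalamus and none lower, and 1 of 15 endothelial features was lower. The part of these cell types in the tissue differences was not tested.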

How the data were processed

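RNA of 23 hypothalamus and 21 brain samples was hybridised in red against a reference RNA in green on 2-colour arrays. The deposited table holds 1 log2 ratio per feature and array, already normalised by the authors; limma is named in the submitters' processing notes, while its version, and how background was corrected and arrays were normalised, are not given in these sources. Base 2 was taken from the size of the values, which no header states, and the direction (tissue over reference) from the dyes in the labels. Every column was matched to a sample by its label, and 0 columns of per-sample values were left unmatched. Arrays have no read depth, and their number limits the precision.

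Differences were fitted with lmFit and eBayes (limma 3.58.1, R 4.3.3) on all 9554 features, in 20 comparisons. Comparisons within a tissue used the groups of that tissue alone, and those between tissues used all 10 groups. Benjamini-Hochberg adjustment ran over all features of each comparison, with a threshold of 0.05. The fit was tested on simulated data before use. Features were matched to mouse symbols by name (88 members), by synonym (2) or not (1). A value was called tied where it equalled exactly that of another feature on the same array, and a feature tied where this held on most arrays (a share above 0.5) of either group compared. Values per array are given for up to 6 called members per comparison with the largest differences among those not tied, other called members by their difference, and up to 4 called genes per list and comparison. The members and lists were chosen with earlier results of these data known. Alternatives were quantile normalization, array medians set to 0, tied features left out, array weights, the replicate number as a block, the number series as a factor, each array left out, and 4 chosen after seeing the data.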

Additional observations from a re-analysis of the deposited data

Results flagged for a closer look

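For the 25 members whose values are given by array, each of the 10 groups was tested for a single array far from the rest, 250 group values in all, with Dixon's ratio of the gap to the range; 28 were past its limit, 5 of them tied values. Chance alone marks about 1 in 20 groups. The groups with an array far from the others were spread over both tissues, and 8 of the 28 came from hypothalamus ACTH gratified replicate 4.

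On that array Timp3 read 0.53 (the other 5 from -0.77 to -0.43), Adam15 read 0.78 (others -0.44 to -0.02), Col5a3 read 0.0346 (others -0.68 to -0.46), Col6a1 read -1.05 (others -1.52 to -1.36) and Itgb5 read -0.93 (others -1.15 to -1.09). It also gave Adamtsl4 at -0.16, Col9a2 at 0.18, the second Adam33 feature at a tied 0.16, which were respectively above, below and below the others. In the same group Adam19 read -1.0001 on replicate 5.

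Elsewhere in hypothalamus, among controls Adamts4 read -0.0619 on replicate 1, Mmp17 read 1.69 and Itgb5 a tied 0.56 on replicate 4. With ACTH, Col9a2 read -0.28 on replicate 1, Col15a1 read 0.33 on replicate 2 and Itga3 read -0.96 on replicate 5. With furosemide, Adamtsl5 read -0.88 on replicate 2 and Adamts4 read -0.0249 on replicate 4. With furosemide gratified, Adamts13 read a tied 0.53 on replicate 1 and Col15a1 read -0.0944 on replicate 3.

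In brain, with ACTH, Col6a1 read -0.91 on replicate 1, Itga3 read -0.45 on replicate 2 and Adam17 a tied 0.40 on replicate 3. With ACTH gratified, Col5a3 read -0.59 and Adamtsl4 read -0.39 on replicate 3, and Adamts8 a tied 0.32 on replicate 5. With furosemide, Mmp17 read 1.66 and the second Adam33 feature 0.34 on replicate 1, and with furosemide gratified Col5a3 read -0.86 on replicate 4.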

How the results depend on the processing

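Member counts for ACTH, the main and alternative values in turn, were as follows. In hypothalamus the 8 calls with ACTH became 3 with tied features left out, 4 with tied values set to missing (chosen after seeing the data) and 24 with array weights. The 11 with ACTH gratified became 6 with array medians at 0, 6 with tied features left out, 7 with tied values set to missing, 20 with array weights and 15 without replicates 4 and 6 (chosen after seeing the data). In brain the 21 with ACTH became 11 with tied features left out and 8 with tied values set to missing, and the 17 with ACTH gratified became 6 and 9. The 0 calls became 2 for furosemide in brain and 1 for ACTH gratified against ACTH in brain, both with array weights. The tied alternatives test fewer features or values, and the cause of the other shifts was not tested.

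Between tissues, the 4 calls in controls became 2 with array medians at 0, 7 with array weights and 0 with the number series as a factor. The 1 with ACTH became 2 with quantile normalization and 0 with tied values set to missing, and the 0 with ACTH gratified became 1 with array weights and 1 without arrays 4 and 6. The 3 with furosemide became 1 with quantile normalization, 1 with array medians at 0, 14 with array weights, 0 with the number series and 0 with tied values set to missing. The 0 with furosemide gratified became 1 with quantile normalization and 5 with array weights. The 14 over the 5 treatments became 7 with tied features left out, 22 with array weights, 2 with the number series and 2 over the ACTH groups only (chosen after seeing the data). The difference in the furosemide change between tissues went from 0 to 4 with array weights. The number series could not be fitted for ACTH against control, since it holds no control array.

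The replicate block gave 7 calls for ACTH gratified in hypothalamus, and between tissues 0 with ACTH, 1 with ACTH gratified and 1 with furosemide; it changed no other member count by more than 1.5 times. The labels do not say whether replicate numbers pair the samples. In 0 of 17 comparisons of 2 groups did every same-number pair correlate above 0.1, and 38 of 183 pairs did. Pairs of unlike numbers were not set beside them, so these values cannot show whether the numbers pair samples.

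Leaving out 1 array gave 12 to 21 and 14 to 20 calls in brain for ACTH and ACTH gratified, 4 to 10 and 6 to 18 in hypothalamus, 0 to 1 for furosemide and 0 to 4 for furosemide gratified in brain (4 without brain control replicate 1), and 0 to 1 for ACTH gratified against ACTH in brain. Between tissues it gave 1 to 5 in controls, 0 to 1 with ACTH and with ACTH gratified, 0 to 3 with furosemide, 0 to 4 with furosemide gratified (4 without brain replicate 4) and 12 to 17 over the treatments. The 4 in controls fell to 2 without brain replicate 3 or hypothalamus replicate 2 and to 1 without replicate 4 of either tissue. The 3 with furosemide fell to 0 without brain replicate 3 or 4 or hypothalamus replicate 1, and to 1 without hypothalamus replicate 2 or 3. The 1 with ACTH fell to 0 without brain replicate 2 or hypothalamus replicate 3, 4 or 5.

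Of 79 results for single members, 2 took the other sign, both with tied values set to missing: the Col20a1 feature in brain with ACTH (-0.0573, limma adjusted p = 0.896) and the Adam28 feature in hypothalamus with ACTH (-0.0146, limma adjusted p = 0.965). Over all features, array weights called 2753 and 2840 in place of 1005 and 1207 in hypothalamus, and the block 797 in place of 1207; between tissues the number series left 34 of 269 in controls, 32 of 236 with furosemide and 604 of 1415 over the treatments (268 over the ACTH groups), and array weights gave 624 and 1991 in the first 2, 190 in place of 117 with ACTH, 131 in place of 53 with ACTH gratified and 356 in place of 156 with furosemide gratified. Array weights gave 182 features in place of 9 for furosemide in brain and 507 in place of 6 for the tissue difference in its change.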
